A study of Mus musculus with 4 samples.

Results

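H1f0 is the replacement linker histone gene of the mouse. It is described here beside the other linker histone genes that these thymocytes expressed, H1fx and the clustered genes Hist1h1a, Hist1h1b, Hist1h1c, Hist1h1d and Hist1h1e. These 7 genes were chosen by name out of 31053 in each gene expression table, because the level of H1f0 over all cells and in cycling cells had been seen to differ between the libraries, so those values are given as a description. Wild type thymi had been in their hosts for 28 days, and the sort took DN3-DN4, ISP (immature single positive) and DP (double positive) thymocytes. One condition is autonomy, in which a transplanted thymus goes on making T cells out of its own progenitors. The other is turnover, where progenitors that come in from outside take over from the resident ones. Each condition had 1 droplet 5′ gene expression library and 1 library of rearranged T cell receptor chains. The labels describe neither the hosts nor how many animals were pooled.

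Linker histones bind the nucleosome where DNA enters and leaves it and help to compact chromatin. The Hist1h1 genes are replication-dependent: they are transcribed mainly in S phase, and most of their mRNA ends in a stem-loop without a poly(A) tail, so assays primed on poly(A) catch part of it. H1f0 and H1fx have polyadenylated mRNA that is made outside S phase as well, and H1f0 is known for accumulating in cells that stop dividing and differentiate. In the thymus, cells proliferate once the beta chain of the T cell receptor is made and then rest as DP cells that rearrange the alpha chain.

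All 7 genes matched RefSeq by symbol or synonym on GRCm38.p6, the same build as mm10, and all are protein coding. H1f0 lies alone at chr15:79028212-79030504 and H1fx, named H1f10 in RefSeq, at chr6:87980421-87981482. The others are on chromosome 13, at chr13:23763668-23764412 for Hist1h1a, chr13:21779832-21780625 for Hist1h1b, chr13:23738807-23739531 for Hist1h1c, chr13:23555032-23555807 for Hist1h1d and chr13:23621777-23622558 for Hist1h1e. How the authors' counting treated reads that match several of these similar coding sequences is not given in the sources used here, so the split between single Hist1h1 genes is uncertain to that extent.

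By exact matches to CCAATCA the promoter windows separate the Hist1h1 genes from H1f0 and H1fx, and 4 of the windows are printed. Variant letters and elements outside the windows searched would be missed. Each line is the 150 bases before the annotated start, read 5′ to 3′ on the gene's strand, from RefSeq on GRCm38.p6. Capitals mark the H1 box AAACACA, the CCAAT element CCAATCA and the TATA elements TATAAA or TATATA, which overlap each other where both are present. The windows are chr15:79028062-79028211 for H1f0, chr13:23763518-23763667 for Hist1h1a, chr13:21780626-21780775 on the minus strand for Hist1h1b and chr13:23622559-23622708 on the minus strand for Hist1h1e.
H1f0: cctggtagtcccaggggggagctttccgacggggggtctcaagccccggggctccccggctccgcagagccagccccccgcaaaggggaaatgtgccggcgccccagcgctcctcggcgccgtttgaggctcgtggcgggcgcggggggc
Hist1h1a: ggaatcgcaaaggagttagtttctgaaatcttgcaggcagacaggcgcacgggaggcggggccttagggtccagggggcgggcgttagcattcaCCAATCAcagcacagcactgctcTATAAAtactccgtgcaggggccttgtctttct
Hist1h1b: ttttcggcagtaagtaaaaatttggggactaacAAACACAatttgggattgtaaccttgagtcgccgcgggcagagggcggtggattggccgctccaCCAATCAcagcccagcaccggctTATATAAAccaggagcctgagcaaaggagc
Hist1h1e: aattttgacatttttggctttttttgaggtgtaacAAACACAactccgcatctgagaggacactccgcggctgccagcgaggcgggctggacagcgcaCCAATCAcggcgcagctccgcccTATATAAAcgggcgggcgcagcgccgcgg

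Over 250 bases before each start and on both strands, CCAATCA was present in all 5 Hist1h1 promoters, beginning 51 to 56 bases before the start. AAACACA was present in 4 of them, beginning 117 bases before the start in Hist1h1b, 112 in Hist1h1c, 122 in Hist1h1d and 115 in Hist1h1e. Hist1h1a had no AAACACA. The windows of H1f0 and H1fx held none of the 4 motifs. Among all 32851 promoters of the same length, 6.25% held AAACACA, 7.23% CCAATCA, 12.4% TATAAA and 5.25% TATATA, and 122 (0.371%) held both AAACACA and CCAATCA. A match describes letters in the window and does not show binding, and the absence of a match says nothing of the factor.

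**Figure D1:**
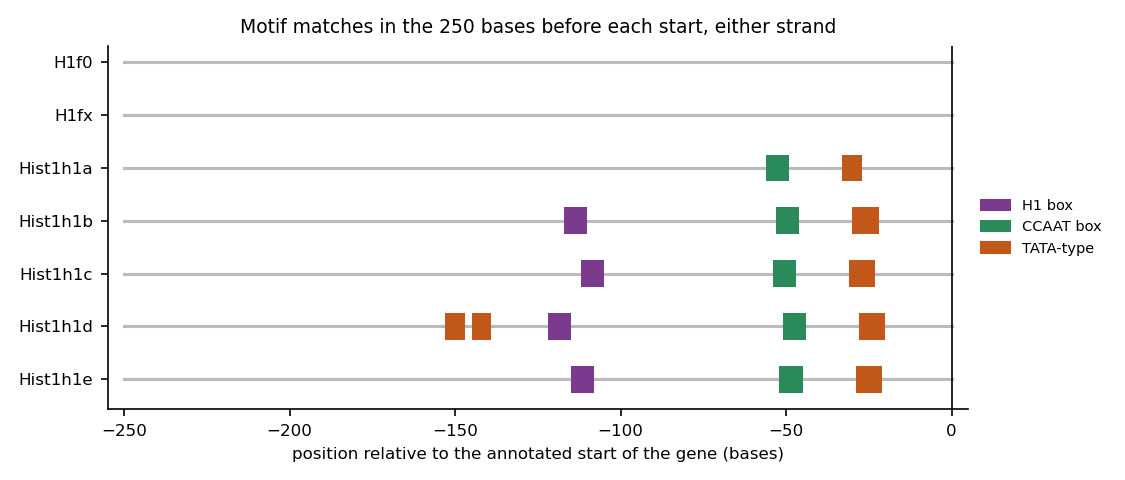
Positions of the 4 motifs in the 250 bases before the annotated start of each of the 7 genes, in bases relative to the start, with 1 row per gene and the TATA motifs drawn in 1 colour. The CCAAT elements and the TATA elements nearest the start line up in the 5 Hist1h1 genes. Hist1h1d also has TATAAA on the opposite strand, 153 and 145 bases before the start. The H1 box is present in 4 of the Hist1h1 genes, and the H1f0 and H1fx rows are empty.

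Barcodes with 1000 or more UMIs (unique molecules) numbered 4414 in autonomy and 4227 in turnover, with medians of 2430 and 2112 UMIs per cell, and 31 barcodes were in both libraries. Xist without Y-linked transcripts was found in 1781 autonomy and 0 turnover cells, and the reverse in 934 autonomy and 2459 turnover cells, so the autonomy library mixed cells of both sexes. Of cells with a productive beta chain, 85.4% in autonomy and 4.35% in turnover shared it with another cell. A list of 9 macrophage genes summed to 191 CPM in autonomy and 21.1 CPM in turnover, where CPM are UMIs scaled to a common library total, while 6 erythroid genes had 0 UMIs in both. The part of these differences in the results was not tested, and values within classes of cells and within cells of 1 sex are given below. With 1 library per condition no test was possible. Every 95% interval covers counting error only and treats UMIs as independent, which clonal cells and bursts of many UMIs in 1 cell are not.

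H1f0 was lower in autonomy in all cells and nearly missing from its cycling cells. Over all cells, H1f0 had 179 UMIs in autonomy (11.01 CPM, 9.46 to 12.7) and 829 UMIs in turnover (41.3 CPM, 38.6 to 44.2), a ratio of 0.266 (0.225 to 0.313). Of the 6 members with 200 or more UMIs, 1 was at least 2-fold lower in autonomy (H1f0) and 0 were at least 2-fold higher, against 2.3% and 13.6% of the 8998 genes measured. The median log2 ratio of those 6 members was -0.47, beside 0.28 over all genes. H1fx, below that minimum, had 24 UMIs in autonomy and 118 in turnover, a ratio of 0.251 (0.155 to 0.392). Of these UMIs, 21 in autonomy and 105 in turnover were in cycling cells, where the ratio was 0.562 (0.334 to 0.904). The libraries differed in their share of cycling cells, as given below. Of the 8998 genes, 12 had a lower ratio than H1f0. A sum of UMIs cannot tell fewer expressing cells from less RNA per cell, and for H1f0 the share of cells with a UMI is given below.

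The clustered genes split over all cells. Hist1h1a, tied to dividing cells together with Hist1h1b, had 62.9 CPM in autonomy and 124 CPM in turnover (ratio 0.508, 0.472 to 0.547). Hist1h1b had 220.2 CPM in autonomy and 416 CPM in turnover (ratio 0.529, 0.509 to 0.551). For Hist1h1c, Hist1h1d and Hist1h1e, which many somatic tissues express, the ratios were 1.04, 0.983 and 1.11. These 3 depend on scaling, since TMM factors, which shift every all-cell ratio by -0.29 on the log2 scale, turn them to 0.852, 0.802 and 0.907. The mixture of cells also differed, since cycling clusters held 244 of 4414 autonomy cells and 666 of 4227 turnover cells. Hist1h1t, the testis-specific linker histone, had 5 UMIs in autonomy and 7 in turnover.

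Cells were clustered without histone, cell cycle, receptor segment and sex genes, and were grouped into classes named for the marker genes whose levels passed a threshold. In cycling cells H1f0 and the clustered genes went apart. H1f0 had 2 UMIs in the 244 autonomy cells (0.483 CPM, 0.0585 to 1.75) and 369 UMIs in the 666 turnover cells (31.7 CPM, 28.6 to 35.1), a ratio of 0.0152 (0.00184 to 0.0554). The intervals of the levels do not overlap, and 1 of 7946 genes had a lower ratio. H1fx had 21 UMIs in autonomy and 105 in turnover (ratio 0.562, 0.334 to 0.904). Of the 7 members, each measured here with 100 or more UMIs, 1 was at least 2-fold lower (H1f0) and 0 were 2-fold higher, against 1.01% and 6.9% of the genes measured. H1f0 was among the genes chosen for a low level and passed the minimum through its turnover UMIs, so its place beyond the threshold is a description here and in the cycling classes below.

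With cycling cells set by cluster, the clustered genes were near equal or higher in autonomy, and ranges under other settings are given at the end. Hist1h1a had 206 CPM in autonomy and 203 CPM in turnover cycling cells, a ratio of 1.015 (0.937 to 1.098) that became 0.892 with TMM factors. Hist1h1b had 760.2 CPM in autonomy and 685 CPM in turnover cycling cells, a ratio of 1.11 (1.06 to 1.16) that turned to 0.975 with TMM factors. Hist1h1c had 150 CPM in autonomy and 93.1 CPM in turnover cycling cells (ratio 1.61, 1.46 to 1.78). Hist1h1d reached 330.0 CPM in autonomy and 179 CPM in turnover cycling cells (ratio 1.85, 1.72 to 1.98). Hist1h1e reached 625 CPM in autonomy and 322 CPM in turnover cycling cells (ratio 1.94, 1.84 to 2.04). These 3 ratios stood above those of 83.97%, 90.4% and 92.1% of the genes measured, and with TMM factors they were 1.42, 1.62 and 1.70.

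**Figure D2:**
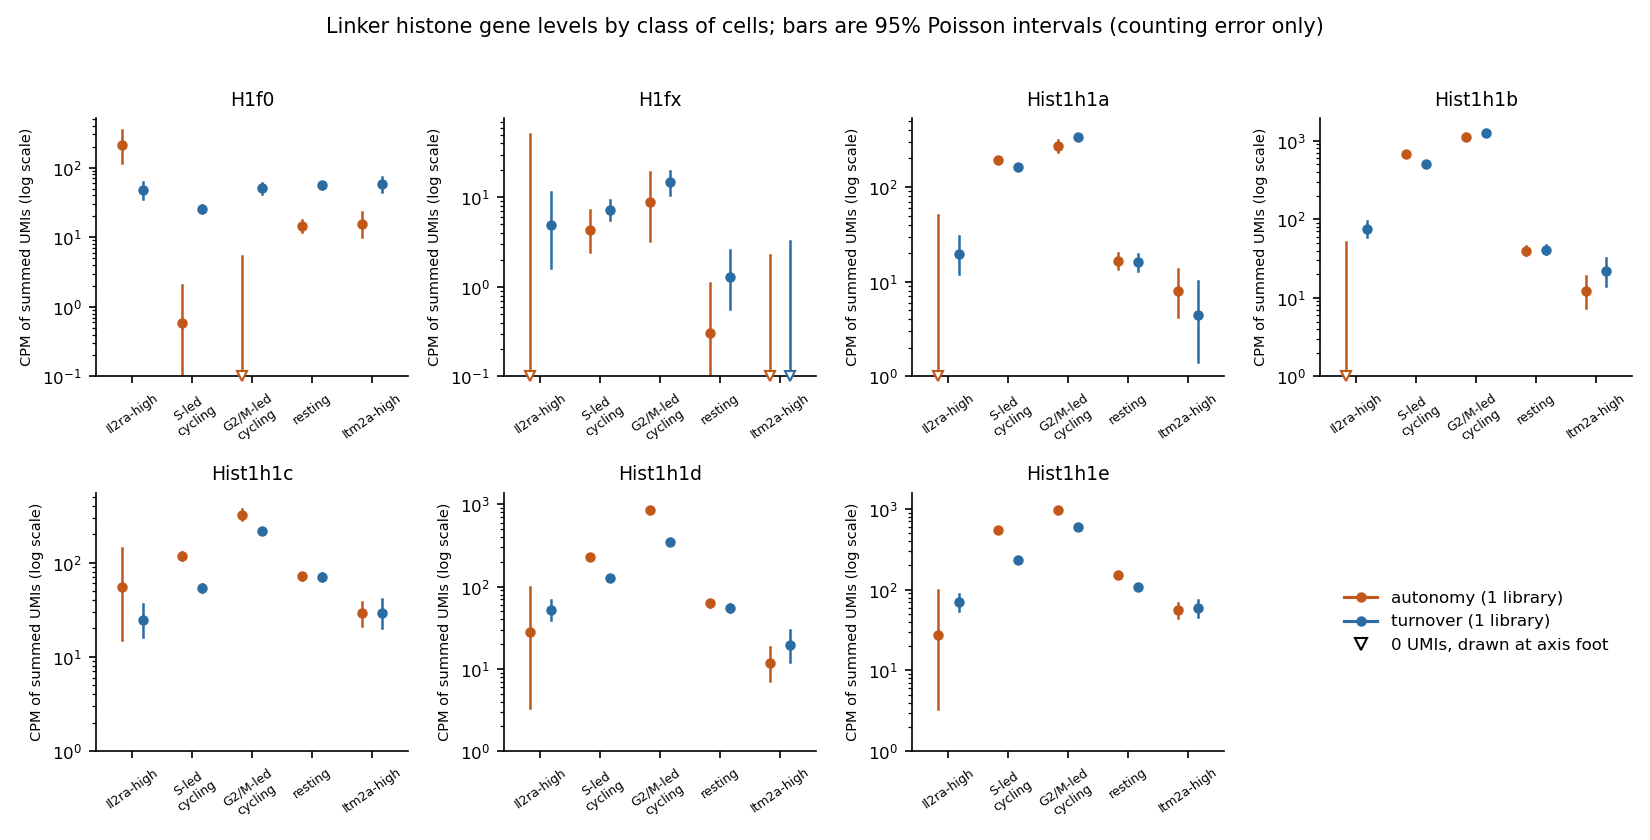
Level of each member in CPM (log axis) in autonomy and turnover, by class of cells, with 95% Poisson intervals of counting error; an open triangle marks 0 UMIs. H1f0 lies lower in autonomy in the S-led, G2/M-led, resting and Itm2a-high classes, whereas Hist1h1c, Hist1h1d and Hist1h1e lie higher in autonomy in both cycling classes.

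Single cells weigh on the autonomy sums. The autonomy cycling cell with the most UMIs of a gene held 169 of the 1366 UMIs for Hist1h1d (12.4%), 215 for Hist1h1e (8.32%) and 81 for Hist1h1c (13.04%). Without each gene's top cell in each library the cycling ratios were 1.45 for Hist1h1c, 1.68 for Hist1h1d and 1.82 for Hist1h1e. No autonomy cycling cell had more than 1 UMI of H1f0, while 1 turnover cycling cell had 15.

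The low H1f0 was found in both parts of the cell cycle. In S-led cells, H1f0 had 2 UMIs in 171 autonomy cells and 228 UMIs in 404 turnover cells (0.579 CPM and 25.8 CPM, ratio 0.0224, 0.00270 to 0.0819). Different clusters held these cells in the 2 libraries. The cluster led by Dctpp1, Hells and Cdc6 had 36 autonomy and all 404 turnover cells, and a cluster led by Tcrg-V1, Pdlim4 and Id1 had the other 135 autonomy cells. In the cluster shared by both libraries H1f0 had 1 UMI in autonomy and 228 in turnover (1.81 CPM and 25.8 CPM, ratio 0.0700, 0.00177 to 0.394). In the autonomy cluster led by Tcrg-V1 it had 1 UMI as well (0.344 CPM, 0.00872 to 1.92).

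In G2/M-led cells, clusters led by Nusap1 and Ube2c and by Cdc20 and Cenpa, H1f0 had 0 UMIs in 73 autonomy cells and 141 UMIs in 262 turnover cells (50.4 CPM, 42.4 to 59.4). With a floor of 3 counts in the autonomy sum the ratio is at most 0.0871, and its exact upper limit is 0.109. The first of these clusters gave 0 autonomy and 117 turnover UMIs and the other 0 and 24. H1fx ran at 0.599 in S-led cells (0.317 to 1.06) and 0.599 in G2/M-led cells (0.208 to 1.42), and both intervals include 1.

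The clustered genes were higher in autonomy S-led cells as a whole. There 2 of 6 members measured were at least 2-fold higher (Hist1h1c and Hist1h1e), against 7.15% of 7328 genes, and the 1 lower was H1f0, beside 0.751% of genes, with a median log2 ratio of 0.65 for the 6 and 0.19 for all genes. Hist1h1c was at 116 CPM in autonomy and 53.9 CPM in turnover (ratio 2.16, 1.89 to 2.47). Hist1h1e was at 554 CPM in autonomy and 236 CPM in turnover (ratio 2.35, 2.21 to 2.501), and Hist1h1d at 227 CPM in autonomy and 126 CPM in turnover (ratio 1.81, 1.65 to 1.98). Hist1h1c falls under 2-fold with TMM factors (1.87) and without the top cell (1.79), and Hist1h1e does not (2.03 and 2.14). Hist1h1a and Hist1h1b had ratios of 1.199 (1.09 to 1.32) and 1.36 (1.29 to 1.43) there.

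In the S-led cluster shared by both libraries no clustered gene was higher in autonomy beyond counting error. With 36 autonomy and 404 turnover cells, Hist1h1e had 244 CPM in autonomy and 236 CPM in turnover (ratio 1.03, 0.863 to 1.23), Hist1h1c a ratio of 1.31 (0.919 to 1.82) and Hist1h1d 0.877 (0.666 to 1.13). Hist1h1a and Hist1h1b were lower in autonomy there, at 0.674 (0.511 to 0.872) and 0.797 (0.694 to 0.912). The autonomy cluster led by Tcrg-V1 had 613 CPM of Hist1h1e (585 to 642), 249 CPM of Hist1h1d and 125 CPM of Hist1h1c. The higher S-led values of these 3 genes in autonomy come mainly from a cluster with 0 turnover cells, and cluster and condition cannot be told apart for them.

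In G2/M-led cells, where both libraries had cells in both clusters, 1 of 6 members was at least 2-fold higher (Hist1h1d), against 5.98% of 4468 genes, and the 1 lower was H1f0, beside 0.94% of genes. The median log2 ratio was 0.20 for the 6 members and 0.10 for all genes. Hist1h1d had 851 CPM in autonomy and 346 CPM in turnover (ratio 2.46, 2.21 to 2.73), which was 2.06 with TMM factors and 1.87 without the top cell. Hist1h1c and Hist1h1e were at 1.48 (1.26 to 1.73) and 1.65 (1.505 to 1.805). Hist1h1b had 1126 CPM in autonomy and 1253 CPM in turnover, a ratio of 0.898 (0.830 to 0.971), and Hist1h1a had a ratio of 0.807 (0.685 to 0.946). Both were above 1 in S-led cells as a whole but below 1 in the S-led cluster shared by both libraries, as in these cells. In the larger cluster (54 autonomy and 206 turnover cells) Hist1h1d was at 2.67 (2.41 to 2.97), Hist1h1c at 1.63, Hist1h1e at 1.78 (1.62 to 1.95) and Hist1h1b at 0.976 (0.902 to 1.06). The smaller one (19 autonomy and 56 turnover cells) did not have these higher values, with Hist1h1d at 0.438 from 3 autonomy and 20 turnover UMIs (0.0834 to 1.48), Hist1h1c at 0.531 (0.182 to 1.28), Hist1h1e at 0.904 (0.445 to 1.72) and Hist1h1b at 0.167 (0.0443 to 0.447). Summed over the 5 clustered genes, the ratio was 1.64 (1.59 to 1.70) in S-led and 1.29 (1.23 to 1.35) in G2/M-led cells.

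**Figure D3:**
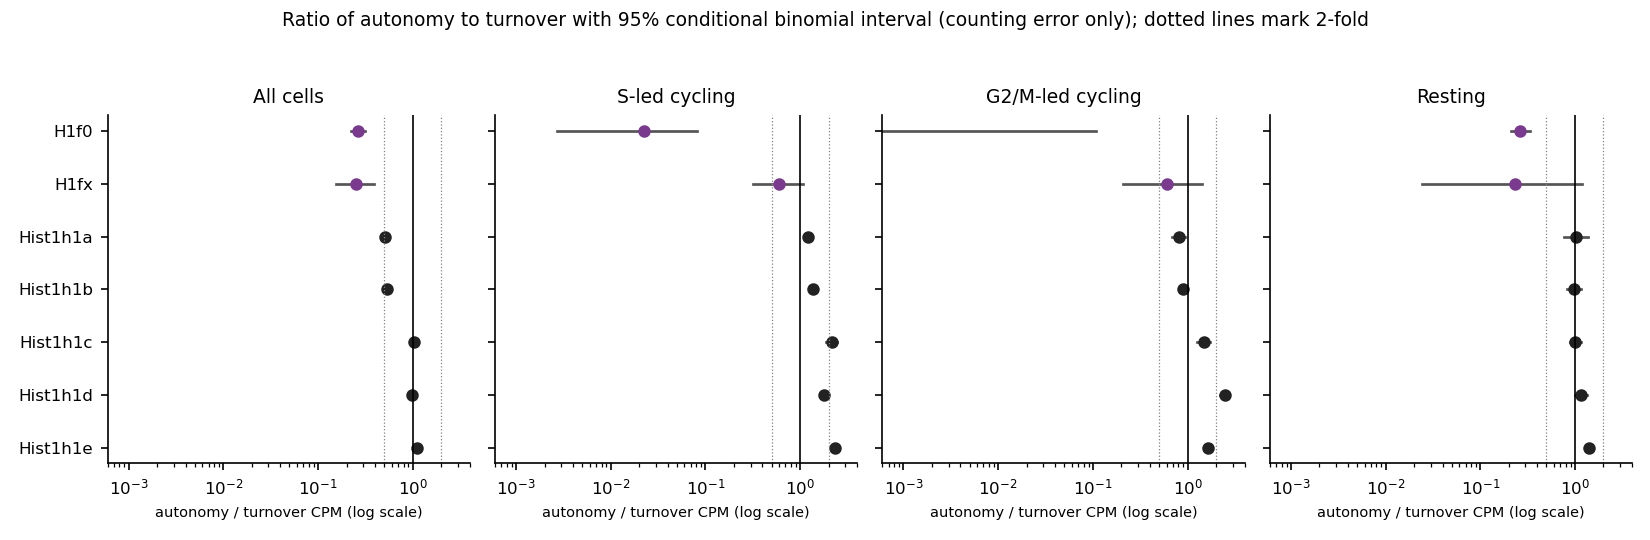
Ratio of autonomy over turnover for each member by class of cells, on a log axis, with 95% intervals of counting error; no point is drawn for H1f0 in G2/M-led cells, where autonomy had 0 UMIs, and its bar ends at the exact upper limit of 0.109. H1f0 is at 0.0224 in S-led and 0.265 in resting cells, while Hist1h1c, Hist1h1d and Hist1h1e are above 1 in both cycling classes.

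Ordering cycling cells by the share of S phase list UMIs showed where in the cycle H1f0 was found. Only cycling cells with 5000 or more UMIs were used. Each was thinned to 5000 UMIs to set its bin, and the levels use all of its UMIs. The bins had shares of 0 to 25%, 25 to 50% and 50 to 75%. They held 55, 85 and 81 autonomy cells and 180, 242 and 204 turnover cells. H1f0 had 0, 1 and 1 UMIs in the autonomy bins, against 104, 121 and 136 UMIs in the turnover bins. Its turnover level was 39.25, 23.9 and 36.4 CPM from the lowest to the highest S share, so it was present in each of these bins there. Hist1h1e was higher in autonomy in each, with ratios of 2.68, 1.76 and 1.89, and Hist1h1d likewise with 1.82, 1.47 and 2.675. Hist1h1a had no single direction over the same bins (1.45, 0.863 and 1.06). The last bin held 3 autonomy and 4 turnover cells and is not read.

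**Figure D4:**
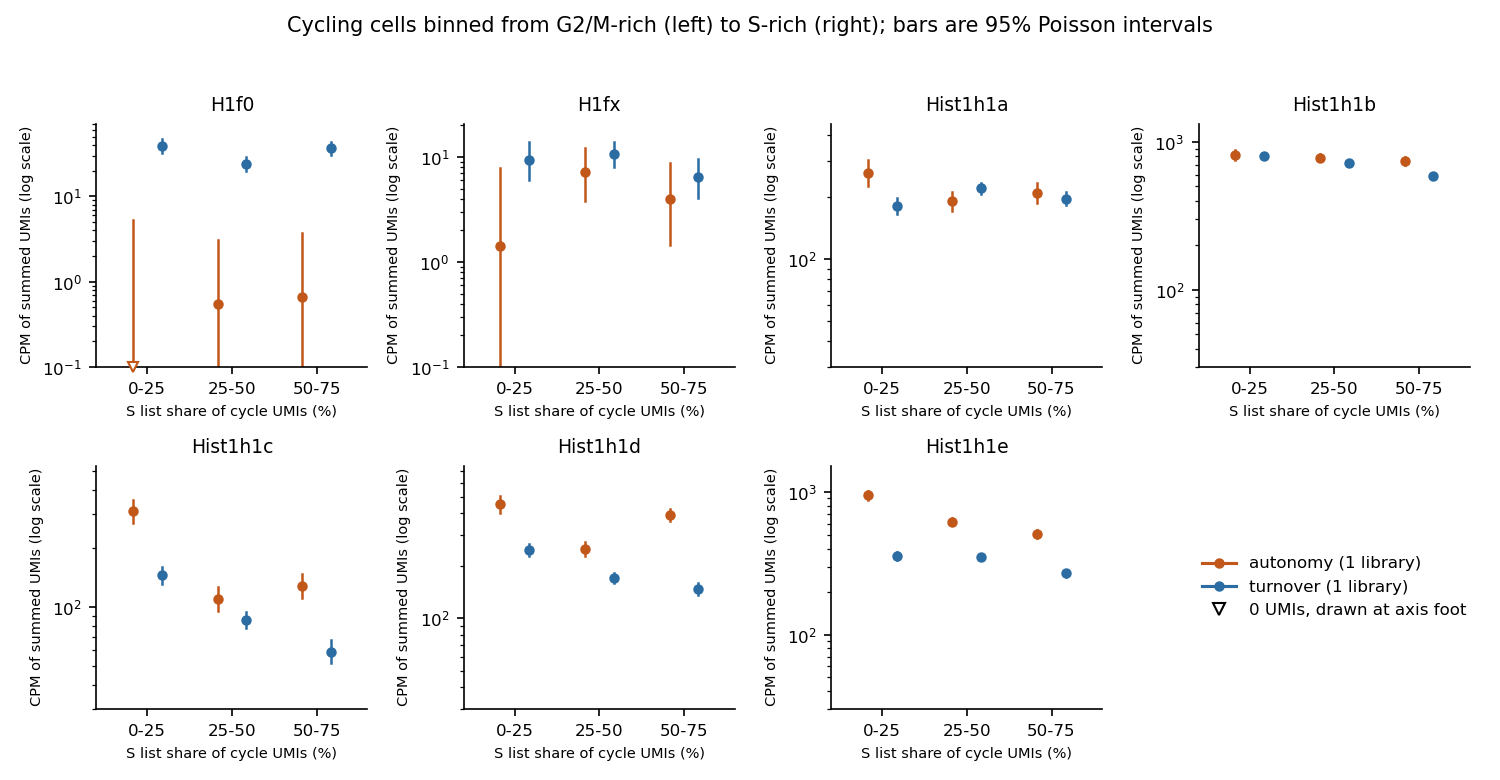
Levels of the members in CPM (log axis) against bins of the S phase list's share of S plus G2/M list UMIs, in cycling cells of autonomy and turnover, with 95% Poisson intervals; an open triangle marks 0 UMIs. H1f0 runs between 23.9 and 39.25 CPM in the turnover bins and has at most 1 UMI in each autonomy bin.

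Some stage markers also differed in the cycling cells. Ptcra, the pre-receptor alpha chain, was at 376 CPM in autonomy and 103 CPM in turnover (ratio 3.64), and Il2ra had a ratio of 7.43. Cd4 (1.001), Cd8a (0.917) and Rag1 (1.06) were near equal. Ptcra was higher in autonomy resting cells too (370.5 CPM, and 79.2 CPM in turnover), so its cycling difference is not read as one of stage. Cycling cells with 5000 or more UMIs were also placed in 5 bins by Cd4, Cd8a and Cd8b1 UMIs per 5000. This count is low before and high after the DP stage is reached, and the levels again use all UMIs of a cell. From the lowest to the highest bin H1f0 had 1, 0, 0, 1 and 0 UMIs in 25, 54, 58, 59 and 28 autonomy cells, against 48, 70, 74, 93 and 77 UMIs in 97, 104, 134, 133 and 162 turnover cells. The turnover level ran at 18.3, 26.01, 25.9, 49.5 and 52.8 CPM, highest in the last bins. Hist1h1e was higher in autonomy in all 5 bins (ratios of 1.81, 2.06, 2.82, 1.38 and 1.54). Hist1h1b was above 1 in the 3 lowest bins (1.42, 1.25 and 1.33) and below 1 in the last ones (0.830 and 0.827).

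Receptor state was read from the V(D)J libraries and not from expression. In cycling cells with a productive beta and no productive alpha chain, H1f0 had 1 UMI in 133 autonomy cells and 319 UMIs in 567 turnover cells, a ratio of 0.0124 (0.000314 to 0.0698). Cycling cells with neither chain had 1 UMI in 92 autonomy and 15 UMIs in 37 turnover cells, and those with both had 0 UMIs in 15 autonomy and 35 UMIs in 62 turnover cells. In resting cells the ratio was 0.278 with neither chain, 0.273 with alpha only, 0.177 (0.120 to 0.254) with beta only and 0.455 (0.314 to 0.651) with both. Resting cells with alpha only had 19.4 CPM in autonomy and 71.2 CPM in turnover, and those with beta only had 11.8 CPM in autonomy and 66.9 CPM in turnover. Hist1h1e was above 1 in every state of cycling and resting cells, with cycling ratios of 1.40, 2.08 and 2.02 for neither chain, beta only and both. In Itm2a-high cells it was at 2.38 with neither chain, from 2 autonomy UMIs and 1 turnover UMI. There it was at 0.580 with alpha only (3 and 5 UMIs), 0.492 with beta only (5 and 7) and 0.9986 with both (81 and 54). Each of these intervals included 1.

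**Figure D5:**
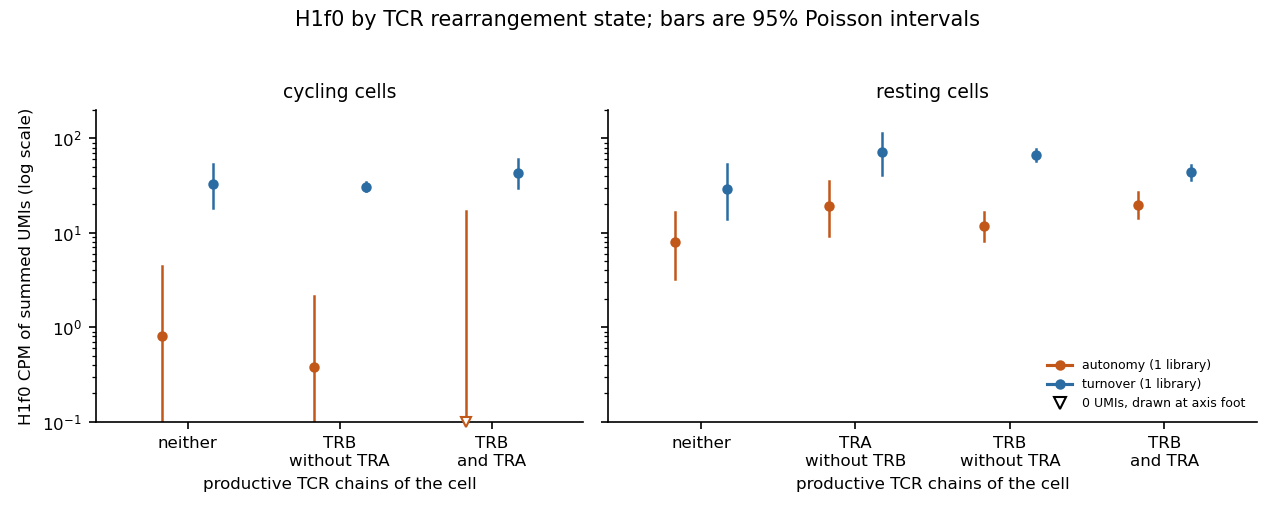
H1f0 level in CPM (log axis) by productive receptor chains found, in cycling and resting cells of autonomy and turnover, with 95% Poisson intervals; an open triangle marks 0 UMIs. Autonomy lies below turnover in each of the 7 groups, and the cycling cells with both chains had 0 UMIs in autonomy.

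Resting cells, 4 clusters with high Rag1 and Cd8a, had a smaller difference in H1f0 and similar levels of most clustered genes. H1f0 had 96 UMIs in 2678 autonomy cells (14.7 CPM, 11.9 to 17.9) and 340 UMIs in 2987 turnover cells (55.4 CPM, 49.7 to 61.6), a ratio of 0.265 (0.209 to 0.333). In the 4 clusters one by one it had 13.5, 14.1, 16.3 and 16.6 CPM in autonomy, against 45.0, 83.2, 52.7 and 33.6 CPM in turnover. In the last of these clusters the intervals overlap (9.68 to 26.6 in autonomy and 22.65 to 47.9 in turnover). The ratio there was 0.495 (0.256 to 0.927). Of 6 members measured 1 was at least 2-fold lower (H1f0) and 0 higher, against 0.944% and 8.64% of 8260 genes, with a median log2 ratio of 0.02 for the members and 0.14 for all genes. Hist1h1e had 151 CPM in autonomy and 107 CPM in turnover (ratio 1.40, 1.27 to 1.55, and 1.25 with TMM factors). In the 4 clusters its ratios were 1.215, 1.74, 1.38 and 1.31, and the interval of the last included 1 (0.976 to 1.77). Hist1h1a, Hist1h1b, Hist1h1c and Hist1h1d had ratios of 1.02, 0.971, 1.009 and 1.15, and each of their intervals included 1.

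The Itm2a-high clusters, led by Itm2a and other genes that T cell receptor signals raise, were like the resting cells for H1f0. It had 25 UMIs in 393 autonomy cells (15.4 CPM, 9.94 to 22.7) and 65 UMIs in 385 turnover cells (57.3 CPM, 44.2 to 73.1), a ratio of 0.268 (0.162 to 0.431). Hist1h1e alone reached 100 UMIs there and was not 2-fold apart (ratio 0.946, 0.683 to 1.32), beside 6.22% of 4437 genes higher and 0.518% lower. In 125 autonomy cells of the S1pr1-high cluster, S1pr1 being the receptor by which mature T cells leave the thymus, H1f0 had 2 UMIs (1.43 CPM, 0.173 to 5.18), and turnover had 2 such cells.

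The Il2ra-high cluster went the other way. H1f0 had 15 UMIs in 8 autonomy cells and 48 UMIs in 125 turnover cells (208 CPM and 47.55 CPM, ratio 4.38, 2.28 to 7.95), but 8 of the 15 UMIs came from 1 cell. Those 8 autonomy cells had 0 UMIs of Hist1h1a and Hist1h1b, against 20 and 76 UMIs in the turnover cells.

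By H1f0 level, the autonomy classes with 50 or more cells began with G2/M-led cells (0 UMIs, upper limit 5.40 CPM), S-led cells (0.579 CPM) and S1pr1-high cells (1.43 CPM), whose intervals overlap. Resting, macrophage-transcript and Itm2a-high cells (14.7, 15.3 and 15.4 CPM) and the resting clusters found mostly in that library (15.9 CPM) followed, again with overlapping intervals. In turnover the S-led cells were lowest (25.8 CPM, 22.6 to 29.4), and the Il2ra-high, G2/M-led, resting and Itm2a-high cells lay at 47.55, 50.4, 55.4 and 57.3 CPM with overlapping intervals. The part of free RNA in these levels was not tested.

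Shares of cells with at least 1 H1f0 UMI describe the same counts in another way. In cycling cells the 2 autonomy UMIs can lie in at most 2 cells, so the low share there follows from the sum. In cycling cells they were 0.820% in autonomy (2 of 244, 0.0994 to 2.93) and 21.9% in turnover (146 of 666, 18.8 to 25.3), at median depths of 14832 and 15636 UMIs. With each cell thinned to 1000 UMIs, 0 of 244 autonomy cells had one, which by a floor of 3 counts allows a share of up to 1.23% with a UMI at that depth (exact upper limit 1.5%), and 4.35% of turnover cells did (2.94 to 6.19). In resting cells the shares were 2.24% in autonomy and 7.16% in turnover, and 1.23% (0.850 to 1.73) and 4.02% (3.34 to 4.79) after thinning. Hist1h1e was found in 77.9% of autonomy and 74.8% of turnover cycling cells, and after thinning in 33.6% (27.7 to 39.9) and 26.1% (22.8 to 29.6), with overlapping intervals.

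Within each library the cycling cells were set against the resting ones. In autonomy H1f0 was at 0.483 CPM in cycling and 14.7 CPM in resting cells, a ratio of 0.0329 (0.00393 to 0.122). In turnover it was at 31.7 CPM in cycling and 55.4 CPM in resting cells, a ratio of 0.573 (0.493 to 0.666). Cycling cells hold several times more UMIs, so per cell the turnover H1f0 was higher in cycling (0.554 UMIs) than in resting cells (0.114 UMIs), whereas in autonomy it was lower in cycling (0.00820 UMIs) than in resting cells (0.0358 UMIs). Hist1h1a and Hist1h1b were higher in cycling cells in both libraries, with ratios of 12.4 and 18.98 in autonomy and 12.6 and 16.6 in turnover. Hist1h1c differed least of the clustered genes, at 2.10 (1.86 to 2.37) in autonomy and 1.31 (1.17 to 1.47) in turnover. H1fx was higher in cycling cells as well. Its ratio was 16.6 (4.06 to 146) in autonomy, from 21 cycling and 2 resting UMIs. In turnover it was 6.93 (3.39 to 16.5), from 105 and 8 UMIs. At least 2-fold higher in cycling cells were 5 of 5 members measured in autonomy, the Hist1h1 genes, against 11.7% of all genes. In turnover 5 of 7 were, H1fx and the Hist1h1 genes other than Hist1h1c, against 12.7%. Lower by as much were 0 in each, against 33.7% and 33.4%, and H1f0 was not measured in autonomy here because its 98 UMIs were under 100.

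The make-up of the clustered linker histone RNA differed as well. A UMI counts 1 molecule whatever its length, so these shares are of molecules. Of the UMIs of the 5 genes in cycling cells, Hist1h1e took 30.2% in autonomy and 21.7% in turnover, and Hist1h1b 36.7% in autonomy and 46.2% in turnover. In resting cells Hist1h1e took 44.1% in autonomy and 36.9% in turnover, and Hist1h1b 11.7% in autonomy and 14.2% in turnover. H1f0 made up 0.0233% of the UMIs of all 7 members in autonomy cycling cells and 2.08% in turnover cycling cells. In resting cells it made up 4.11% in autonomy and 15.9% in turnover, and in Itm2a-high cells 11.6% in autonomy and 29.9% in turnover.

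H1f0 was lower in autonomy within cells of 1 sex too, where the cycling values are parts of the sums already given. Among cells with Y-linked and no Xist transcripts, resting cells had 10.1 CPM in autonomy (5.51 to 16.9, 558 cells) and 55.4 CPM in turnover (47.8 to 63.7, 1612 cells). Autonomy resting cells with Xist and no Y-linked transcripts had 13.9 CPM (9.78 to 19.1). Among cycling cells with Y-linked and no Xist transcripts, H1f0 had 0 UMIs in 54 autonomy cells and 292 UMIs in 516 turnover cells. H1fx differed by this split, since all 21 of its autonomy cycling UMIs were in cells with Xist and no Y-linked transcripts, and those with Y-linked transcripts only had 0 UMIs in autonomy and 89 in turnover. Macrophage genes summed to 12.6 CPM in autonomy and 6.79 CPM in turnover cycling cells, and 3 and 1 of the 9 were at 0.

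The core histones of the replication-dependent clusters, which form the nucleosomes that linker histones bind, were counted in the same classes. Of 51 measured in cycling cells, autonomy had 8 at least 2-fold higher and 0 lower, against 6.9% and 1.01% of all genes, with a median log2 ratio of 0.52 beside 0.17 for all genes, and Hist1h4k (2.35), Hist1h3h (2.21) and Hist1h3i (2.11) were highest, while Hist2h2be was at 0.634 (0.405 to 0.962). In S-led cells 14 of 46 were higher and 0 lower, against 7.15% and 0.751% of all genes. Hist1h3i led them at 120 CPM in autonomy and 31.9 CPM in turnover (ratio 3.75). Of the 171 autonomy S-led cells, 135 were in the cluster with 0 turnover cells. Cluster and condition cannot be told apart for these core histone values either. In G2/M-led cells 4 of 43 were higher and 1 lower, against 5.98% and 0.94% of all genes. In resting cells 0 of 21 were either, beside 8.64% and 0.944% of all genes. Many of these genes have near-identical copies, so single values are uncertain. Of the 8 replication-independent core histone genes measured in cycling cells 0 were 2-fold apart (median log2 ratio 0.15), beside 6.9% higher and 1.01% lower among all genes.

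Genes that process histone mRNA or handle linker histones were counted in the same way. Of 22 measured in cycling cells 0 were 2-fold apart, beside 6.9% higher and 1.01% lower among all genes. With so few genes a count of 0 lies near those shares and is not read as a result. Their median log2 ratio was 0.12, and the ratios ran from 0.681 for Lsm10 to 1.90 for Chaf1a. Slbp, which binds the histone stem-loop, had 634 CPM in autonomy and 576 CPM in turnover (ratio 1.100, 1.05 to 1.15). In resting cells 1 of 21 was higher, Lsm11, part of the particle that cuts histone pre-mRNA (ratio 2.38), where 8.64% of all genes were. Of 8 HMG genes, some of whose products compete with linker histones on chromatin, 0 were 2-fold apart in cycling cells. The shares of all genes there were again 6.9% and 1.01%, and the HMG ratios ran from 0.7955 for Hmgn3 to 1.86 for Hmga1. In resting cells 1 of 8 was higher, a count that can be read against the same 8.64%, and it was Hmga1, with 178 CPM in autonomy and 62.2 CPM in turnover (ratio 2.87). The S phase list summed to 9514 CPM in autonomy and 8280 CPM in turnover cycling cells, and the G2/M list to 15019 CPM in autonomy and 15791 CPM in turnover.

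Over 12 library-by-class profiles with 50 or more cells, the pattern of H1f0 was most like those of Eif2s3y (Pearson r = 0.961 on log2(CPM + 10)), Ccl27a (0.924), Znrd1 (0.897), Mrps21 (0.875) and Ddx3y (0.870) among 8998 genes. Eif2s3y and Ddx3y are Y-linked, and the libraries differ in their mixture of sexes. Both also differed between classes within turnover, which had 0 cells with Xist. There Eif2s3y was at 56.4 CPM in cycling and 172 CPM in resting cells, and Ddx3y at 39.2 and 130 CPM. The part of the mixture of sexes in these correlations was not tested. Ccl27a, a chemokine gene, had 2.17 CPM in autonomy and 9.97 CPM in turnover cycling cells. H1f0 ran weakly against the clustered members, with r of -0.22 for Hist1h1a to -0.40 for Hist1h1e, whereas Hist1h1a and Hist1h1b ran together (0.988), as did Hist1h1d and Hist1h1e (0.956). The profiles share libraries and depth, and these values are descriptions. Hist1h1a and Hist1h1b were most like Ccdc34, Hist1h1c most like H2afv, and Hist1h1d and Hist1h1e most like Hist1h2bg.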

How the data were processed

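The deposited tables hold counts of UMIs per gene and cell barcode, made by the authors with Cell Ranger 3.0.2 on mm10, with Seurat 3.1.3.9002 also named, per the submitters' processing notes. The annotation and cell calling are not given in the sources used here. The V(D)J tables hold contigs with productive calls and UMI counts, as deposited.

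The members and gene lists were chosen with earlier results of these data known. Barcodes with 1000 or more UMIs were kept. Scrublet called 4 autonomy and 1 turnover barcodes, too few to have worked, and none were removed. Clustering used 2000 variable genes centred per library, 30 principal components, the 15 nearest neighbours of each cell with edges weighted by shared neighbours, and the Leiden method (resolution 1). Clusters were grouped with thresholds on marker levels set after seeing the data. The planned cycling state, 3 or more cycle list UMIs of 1000, was met by most resting cells, so clusters define the state instead. UMIs were summed per library and class and divided by the summed total. Levels carry exact Poisson and ratios conditional exact binomial 95% intervals. A gene was measured with 200 UMIs over both libraries (all cells) or 100 (classes), and a floor of 3 counts bounds ratios against 0. All 7 members are named throughout, list genes are up to 3 extremes in each direction, and like genes the 5 or 3 with the highest r. TMM factors and other alternatives are given at the end. Sums and intervals were tested on simulated data. TMM factors came from edgeR 4.0.16 in R 4.3.3, and the rest from Python 3.11.15 with scanpy 1.11.5, leidenalg 0.10.2, scipy 1.17.1, numpy 2.4.6 and pandas 2.3.3, with plots by matplotlib 3.10.9.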

Additional observations from a re-analysis of the deposited data

Results flagged for a closer look

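H1f0 had opposite directions in different classes of cells. Its ratio of autonomy over turnover was 4.38 in Il2ra-high cells, and 0.0224 in S-led cycling, at most 0.0871 in G2/M-led cycling, 0.265 in resting and 0.268 in Itm2a-high cells. The intervals lie on opposite sides of 1, and the difference between classes was not tested. The Il2ra-high value rests on 15 UMIs in 8 autonomy cells.

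Hist1h1a was higher in autonomy in S-led cycling cells (ratio 1.199) and lower in G2/M-led cycling cells (0.807). Hist1h1b went the same way, at 1.36 in S-led and 0.898 in G2/M-led cycling cells. The S-led ratio of Hist1h1a was 1.037 at its lowest among the alternatives run. In the larger G2/M-led cluster Hist1h1a was at 0.867 (0.736 to 1.018) and Hist1h1b at 0.976 (0.902 to 1.06), and both intervals include 1. In Il2ra-high cells Hist1h1b had 0 autonomy UMIs, which bounds its ratio at no more than 0.553 with the floor of 3 counts. These differences between classes were not tested either, and most autonomy S-led cells were in a cluster with 0 turnover cells. In the S-led cluster with cells of both libraries the ratio was 0.674 (0.511 to 0.872) for Hist1h1a and 0.797 (0.694 to 0.912) for Hist1h1b, the same direction as in G2/M-led cells.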

How the results depend on the processing

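No paired analysis was possible because each condition had 1 gene expression library. The H1f0 ratio was below 1 in all cells, cycling and resting cells under every alternative run. Over all cells, at 0.266, it was 0.217 with TMM factors and 0.192 in cells with Y-linked and no Xist transcripts. In cycling cells, at 0.0152, it was at most 0.256 after thinning to 1000 UMIs (0 UMIs in autonomy and 32 in turnover) and at most 0.0911 in cells with Y-linked and no Xist transcripts (0 and 292 UMIs). It was 0.259 with cycling set as 3 or more or as 5 or more cycle list UMIs of 1000, which also take in many resting cells. At 15 or more, chosen after seeing the data, it was 0.0494. In resting cells, at 0.265, it was 0.182 in cells with Y-linked and no Xist transcripts and 0.192 with fewer than 5 cycle list UMIs, the last added after seeing the data. H1fx in resting cells reversed to 1.13 in cells with 3000 or more UMIs (2 UMIs in autonomy and 1 in turnover). The clustered genes in cycling cells also moved with the alternatives. Their ratios ran from 0.550 to 1.03 for Hist1h1a and from 0.574 to 1.13 for Hist1h1b. For Hist1h1c the range was 1.10 to 1.625, for Hist1h1d 1.05 to 2.01 and for Hist1h1e 1.16 to 2.05. TMM factors shifted every cycling ratio by -0.19 and every resting ratio by -0.17 on the log2 scale. Genes at least 2-fold higher over all cells numbered 1222, against 1934 with a minimum of 20 UMIs, 2593 with 1 UMI and 620 with TMM factors, and genes lower numbered 207, against 475, 781 and 437. All barcodes without a UMI minimum was not run for cycling and resting cells, since clusters need it, and H1fx gave no value in resting cells with Y-linked transcripts only. With 1 library per condition, spread between animals is not known, and few H1f0 UMIs per cell limit every autonomy cycling value.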
